A study of Caenorhabditis elegans with 48 samples.

Results

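Which miRNA strands fell and which lasted in lin-28(0) larvae once the first wave of let-7 production had passed was examined by setting the 4 hourly libraries of 12 to 15 h against the 4 of 8 to 11 h. These 8 libraries are part of 48, a time course of small RNA from whole Caenorhabditis elegans larvae with 24 hourly libraries (0 to 23 h) for each of 2 genotypes. Libraries were picked by genotype and sampling hour and strands by a count minimum, with earlier results of these data known. The paper had already reported a peak of the let-7 passenger in lin-28(0) within the earlier window, so its later fall was not an unguided result. Of 437 annotated miRNA strands in the count table, 389 had at least 1 count in the 8 libraries, and the 246 strands with a mean of at least 10 counts over all 48 libraries were tested. At the edge of this minimum, miR-2217a-3p (10.3 counts) and miR-240-3p (11.3 counts) were kept, whereas miR-252-3p (9.88 counts) and miR-8186-3p (9.83 counts) were left out.

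The lin-28(0) animals were of strain HW2706, which carries the deletion allele lin-28(xe192), made by CRISPR, and the reporter xeSi312, a luciferase and GFP fusion driven by the eft-3 promoter. The WT animals were of strain HW1993, which carries the same reporter. Both were grown untreated from synchronized first-stage larvae in liquid culture with OP50 bacteria at 25°C. Each genotype was a single culture sampled every hour, so the hours of a window are not independent cultures and every p-value below measures the spread between hours. Sequencing took 3 reactions, the first on TruSeq and the later ones on CleanTag libraries. The paper gives detection of the let-7 passenger strand as the aim of the last. Which of them entered each library's counts is not stated. The lin-28 mRNA is not part of a small RNA count table, so the deletion itself has no direct check. The let-7 guide, whose maturation LIN-28 blocks, stood at 34779 ± 3768 CPM in lin-28(0) and 88.0 ± 9.96 CPM in WT at 12 to 15 h (mean ± SD, n = 4 hours each), where CPM is counts per 1000000 miRNA counts of a library.

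A miRNA precursor is diced into a duplex. One strand, the guide, is loaded into an Argonaute protein that shields it, while the other, the passenger, is released and degraded, so that passenger levels follow recent production more closely than guide levels. The RNA-binding protein LIN-28 holds back the maturation of let-7 in young larvae, and the let-7 and lin-4 miRNAs of the heterochronic pathway time the passage from one larval fate to the next. Here the guide of a precursor is the strand with the higher mean CPM over the 48 libraries and the passenger is the other one. This rule makes miR-42-5p, miR-43-5p, miR-77-5p, miR-46-5p and miR-241-3p guides, although miR-42-3p, miR-43-3p and miR-241-5p carry the seed of their families. Ratios of mir-42, mir-43 and mir-241 change sign when the family strand is taken as the guide, a change not made for mir-46 and mir-77. In another time course the authors modelled miR-77-3p as the guide. They did so too for miR-788-5p, miR-49-3p, miR-230-5p and miR-790-5p, which the rule makes passengers here. The guides of those precursors were left as set by mean CPM, and none of their ratios passed. No coordinates are given, since the annotation used, WBcel235, is of another build than ce10, the build the authors aligned to. It served only to find which miRNA genes neighbour each other.

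The 8 libraries held 2996370 (12 h) to 9633044 (10 h) counts, so that 1 count was worth 0.334 CPM at most. No pair of the 28 was a duplicate, and the first principal component (62.4% of the variance) separated the windows. The 10 most abundant strands took 68.5 ± 0.94% of the counts at 12 to 15 h and 71.04 ± 1.61% at 8 to 11 h (SD, n = 4 hours each), with an exact two-sided permutation p of 0.0286, the smallest that 4 against 4 allows, and 0.0571 after adjustment over 6 such tests. Among strands known from single tissues, the intestinal miR-60-3p was higher at 12 to 15 h and miR-228-5p, of glia and seam cells, was lower, both without overlap between the windows, whereas the muscle strand miR-1-3p (55163 ± 12912 CPM at 12 to 15 h against 54190 ± 2717 CPM at 8 to 11 h) and the summed neuronal strands (101.6 ± 15.1 CPM at 12 to 15 h against 112.8 ± 15.2 CPM at 8 to 11 h) overlapped. The neuronal strands in that sum moved in different directions between the windows. The log2 difference, 12 to 15 h minus 8 to 11 h, was 0.30 for miR-124-3p, 0.48 for lsy-6-3p and -1.45 for miR-791-3p. None of them passed the edgeR test given below. In whole animals, fewer cells of a type and less RNA per cell cannot be told apart. Each level is a share of the reads of its library, which says nothing of amounts per animal.

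Between the windows, 24 strands rose and 20 fell (edgeR quasi-likelihood test, Benjamini-Hochberg adjusted p under 0.01 over 246 strands), which is 9.76% and 8.13% of the strands tested. At an unadjusted p under 0.05 the count was 112. More than 2-fold changes made up 13 of the rises and 10 of the falls, and the median log2 difference of all strands was -0.01. All 4 hours of 12 to 15 h lay above all 4 hours of 8 to 11 h for 43 strands (17.5%) and below them for 46 (18.7%), and the windows of all 44 called strands were apart in this way. The largest fall was in let-7-3p, the passenger strand of let-7, and the largest rise in miR-77-3p. The number of calls rested on single hours: 10 rose and 8 fell without the 9 h library, 14 and 9 without 13 h, 14 and 10 without 15 h, and 14 and 10 without 10 h.

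**Figure D1:**
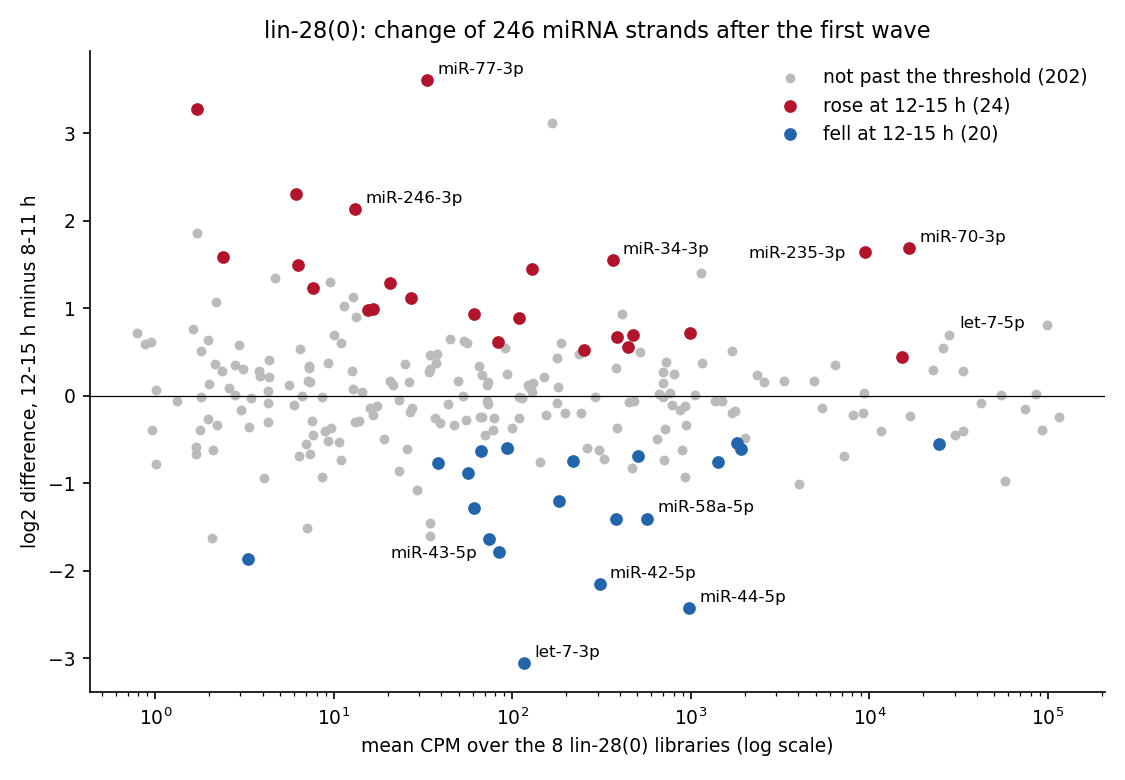
Each point is 1 of 246 miRNA strands, with its mean CPM over the 8 lin-28(0) libraries (log scale, horizontal) and its log2 difference, 12 to 15 h minus 8 to 11 h (vertical). Red points are the 24 strands that rose, blue the 20 that fell and grey the 202 not past the threshold. let-7-3p (-3.05) and miR-77-3p (3.61) lie farthest from 0, and let-7-5p (0.70) is among the grey points.

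The let-7 passenger fell, while the let-7 guide did not pass the test. let-7-3p held 44.1, 30.5, 16.6 and 11.2 CPM at 12, 13, 14 and 15 h, against 77.2, 231, 318 and 198 CPM at 8, 9, 10 and 11 h. Every hour of the later window lay below every hour of the earlier one, and the mean was 25.6 ± 14.8 CPM at 12 to 15 h and 206 ± 99.5 CPM at 8 to 11 h (SD, n = 4 hours each). The log2 difference was -3.05 ± 0.52 (SE), 8.31-fold lower at 12 to 15 h (edgeR adjusted p = 0.0027). The 15 h value rests on 77 counts (exact 95% Poisson interval 8.83 to 13.99 CPM, counting error only).

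let-7-5p, the guide that represses lin-41 and other late larval targets, held 33347, 39725, 35246 and 30798 CPM at 12 to 15 h, against 3987, 13761, 28534 and 37884 CPM at 8 to 11 h. Its windows overlapped, since the 11 h library was above 3 of the 4 later ones, and its log2 difference of 0.70 ± 0.53 did not pass (adjusted p = 0.323). The passenger was 0.132%, 0.0768%, 0.0471% and 0.0363% of the guide at 12, 13, 14 and 15 h, against 1.94%, 1.68%, 1.11% and 0.522% at 8, 9, 10 and 11 h. The log2 passenger-to-guide ratio (1 CPM added to both) thus stood at -10.53 ± 0.78 at 12 to 15 h and -6.41 ± 0.85 at 8 to 11 h (SD), a difference of -4.12 ± 0.44 (SE, limma adjusted p = 3.54e-05).

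Hour by hour, let-7-3p peaked at 10 h and was 28.4-fold lower at 15 h. A line through its log2 CPM (plus 1) from 10 to 15 h had a slope of -0.99 ± 0.11 per hour (SE, 6 hours), a halving every 1.01 h. Over 11 to 15 h, let-7-5p had a slope of -0.05 ± 0.04 per hour. These are net changes of a share of reads, with production still possible, and not decay rates. After the trough, let-7-3p averaged 83.8 CPM at 16 to 19 h in lin-28(0), whereas let-7-5p averaged 29655 CPM there. A smooth curve through all 24 lin-28(0) libraries put the fall of let-7-3p at only -0.65 and ended its call (adjusted p = 0.389). That curve, a cubic spline of 6 components, smooths over neighbouring hours. Its values are therefore not the same measure as the difference between windows, and its fit to a short peak was not tested.

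**Figure D2:**
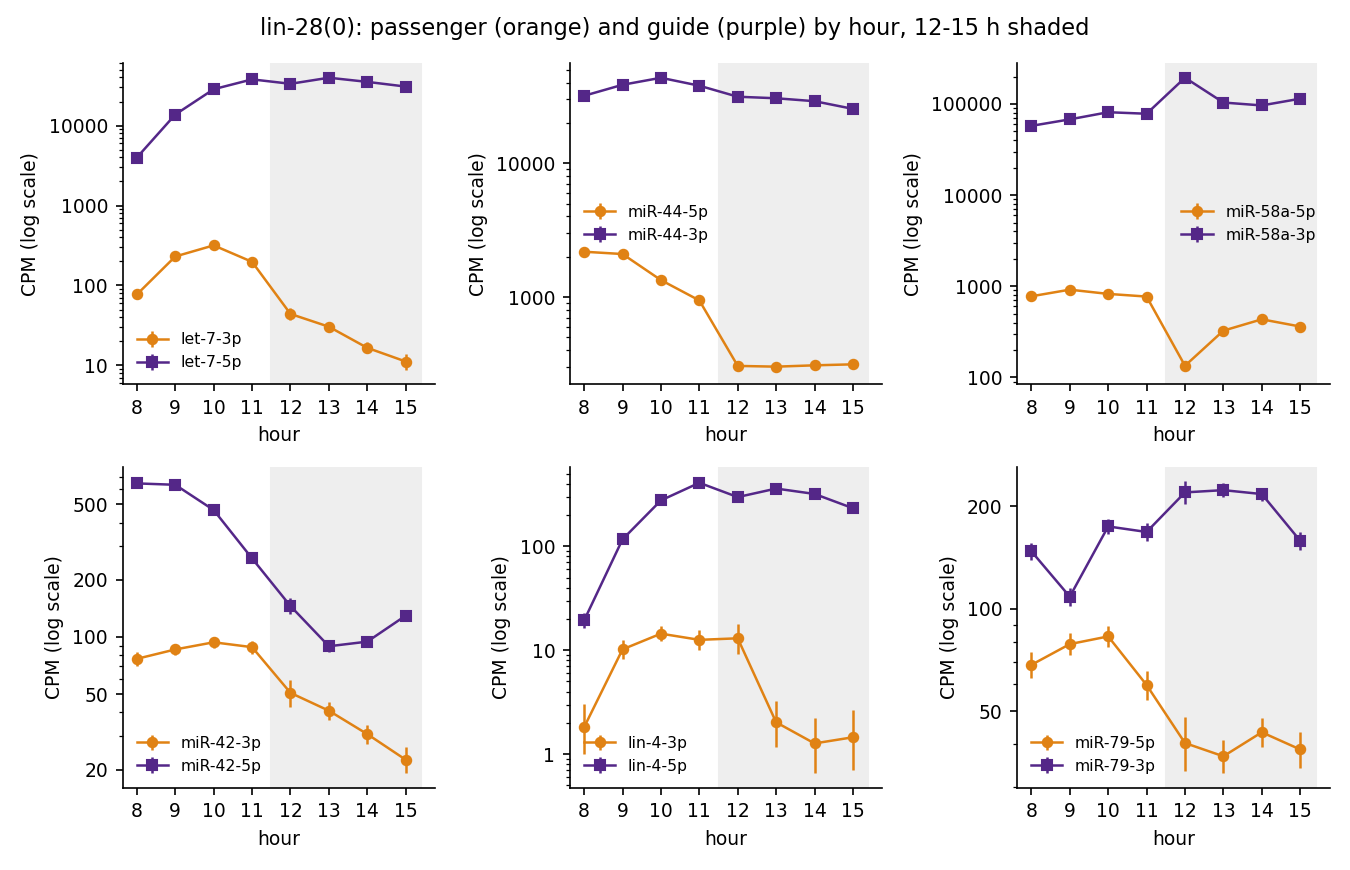
Level of the passenger (orange) and guide (purple) strand of let-7, mir-44, mir-58a, mir-42, lin-4 and mir-79 in lin-28(0) at 8 to 15 h, in CPM on log scales that differ between panels. Bars are exact 95% Poisson intervals of 1 library each, and 12 to 15 h is shaded. let-7-3p drops to 11.2 CPM at 15 h beside a guide near 30798 CPM, miR-44-5p settles between 302 and 315 CPM from 12 h, and lin-4-3p is still at 13.0 CPM at 12 h.

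The largest falls after let-7-3p were in miR-44-5p and miR-42-5p, from the mir-42 to mir-45 genes, which lie within 10 kb of one another and are known from embryos and the germline. miR-44-5p, a passenger, held 306, 302, 309 and 315 CPM at 12 to 15 h, against 2182, 2097, 1340 and 944 CPM at 8 to 11 h. It was thus flat after 12 h and already declining before it. The log2 difference was -2.43 ± 0.25 (adjusted p = 0.000597), and the call held under all 19 alternatives. Its guide miR-44-3p, which shares its 5′ sequence with miR-45-3p so that reads may have been split between them, averaged 29094 ± 2614 CPM at 12 to 15 h against 37927 ± 4733 CPM at 8 to 11 h. The guide was lower at every hour of 12 to 15 h, by -0.40 ± 0.12, which did not pass (adjusted p = 0.0288).

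Both strands of mir-42 fell together. miR-42-5p held 146, 89.3, 94.5 and 129.5 CPM at 12 to 15 h, against 645, 634, 467 and 259 CPM at 8 to 11 h, a log2 difference of -2.15 ± 0.29 (adjusted p = 0.0013). miR-42-3p, which carries the miR-35 family seed, held 50.7, 40.9, 30.8 and 22.5 CPM at 12 to 15 h, against 76.7, 85.9, 93.7 and 88.4 CPM at 8 to 11 h, a difference of -1.28 ± 0.23 (adjusted p = 0.0038). It went on falling within the later window, at a slope of -0.42 ± 0.03 per hour from 10 h, while miR-42-5p was higher at 15 h than at 13 h. The call of miR-42-3p was lost without the 9 h library (adjusted p = 0.0116) and without the 10 h library (adjusted p = 0.0121).

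The strands of mir-43 also moved apart. miR-43-5p, the more abundant strand over the 48 libraries, averaged 38.2 ± 3.07 CPM at 12 to 15 h and 129.7 ± 47.9 CPM at 8 to 11 h, and fell by 1.78 ± 0.27 on the log2 scale (adjusted p = 0.0018). miR-43-3p, of the miR-2 family, averaged 37.4 ± 7.16 CPM at 12 to 15 h and 30.6 ± 4.70 CPM at 8 to 11 h, with overlapping windows (0.27 ± 0.18, adjusted p = 0.27). The less abundant strand was therefore 104%, 94.1%, 116% and 77.2% of the other at 12 to 15 h, against 23.9%, 18.9%, 22.9% and 37.4% at 8 to 11 h, and the log2 ratio rose by 1.92 ± 0.24 (limma adjusted p = 0.000122). Set the other way, with the miR-2 family strand miR-43-3p as the guide, the ratio fell by 1.92, in the direction of let-7. In this group of neighbouring genes 4 of 8 strands fell, against 8.13% of all strands, and none rose, against 9.76%.

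The miR-35 family, needed for embryonic development, lay below the median of all strands. Of its 7 tested -3p strands 2 fell, miR-40-3p and miR-42-3p, against 8.13% of all strands, none rose, and the median was -0.73. miR-40-3p held 112, 149, 110.4 and 77.05 CPM at 12 to 15 h, against 232, 239, 267 and 279 CPM at 8 to 11 h (-1.20 ± 0.20, adjusted p = 0.0023). miR-36-3p had the smallest difference of the family, -0.06. Of the 6 tested -5p passengers of mir-35 to mir-41, miR-41-5p fell, to 36.7, 41.1, 36.4 and 31.8 CPM at 12 to 15 h, against 66.4, 108, 159 and 112 CPM at 8 to 11 h (-1.63 ± 0.25, adjusted p = 0.0018), and the median was -1.27. That is 1 fall of 6 (16.7%), against 8.13% of all strands. miR-39-5p and miR-40-5p differed by -1.60 and -1.62 without passing.

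mir-58a, which yields the most abundant strand family of the animal, related to bantam of flies, gave another passenger that fell. miR-58a-5p held 134, 326, 434 and 362 CPM at 12 to 15 h, against 776, 917, 824 and 771 CPM at 8 to 11 h. The 12 h value was the lowest, and the guide miR-58a-3p was at its highest there, with 194165 CPM at 12 h, 103705, 96387 and 114238 CPM at 13 to 15 h, and 57522 to 81176 CPM at 8 to 11 h. miR-58a-5p fell by 1.40 ± 0.30 (adjusted p = 0.0079), a call lost without the library of 8, 9, 10, 11, 13 or 15 h (adjusted p = 0.0106 to 0.0297), while miR-58a-3p (0.82 ± 0.23) did not pass (adjusted p = 0.0203). The ratio fell by 2.30 ± 0.47 on the log2 scale (limma adjusted p = 0.0031, and 0.0115 without 9 h). The smooth curve over 24 libraries put miR-58a-5p at -0.33 (adjusted p = 0.237).

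Other falls came in single strands of several families. miR-79-5p, the passenger of a miR-9 family miRNA that acts in epidermis, held 40.4, 36.9, 43.4 and 38.7 CPM at 12 to 15 h, against 68.5, 78.8, 83.05 and 59.8 CPM at 8 to 11 h (-0.88 ± 0.14, adjusted p = 0.00204), while its guide miR-79-3p did not pass (0.43 ± 0.19, adjusted p = 0.113). miR-51-5p, of the miR-100 family, averaged 1061 ± 164 CPM at 12 to 15 h against 1768 ± 148 CPM at 8 to 11 h (-0.75 ± 0.13, adjusted p = 0.0035), a call lost without 9, 13 or 15 h (adjusted p = 0.0122 to 0.0179). miR-1832a-5p was the steadiest within windows, with 28.7 ± 0.82 CPM at 12 to 15 h against 48.2 ± 1.70 CPM at 8 to 11 h (-0.77 ± 0.10, adjusted p = 0.0013).

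miR-253-3p, a guide, fell by 1.40 ± 0.31, with 257, 197, 158 and 237 CPM at 12 to 15 h, against 900, 576, 418 and 316 CPM at 8 to 11 h (adjusted p = 0.0081). That decline ran through the earlier window, and the call was lost without any 1 of the libraries of 9, 10, 12, 13, 14 and 15 h (adjusted p = 0.0133 to 0.0286). miR-255-5p fell by 1.86 ± 0.36, more than miR-43-5p, but at 1.39 ± 0.69 CPM at 12 to 15 h against 5.24 ± 1.86 CPM at 8 to 11 h it rests on few counts and lay under the 10 CPM set for named strands (adjusted p = 0.0045). The other falls were in miR-61-5p, miR-53-5p, miR-87-5p, miR-54-5p, miR-1018, miR-228-5p and miR-1022-5p. Of these miR-228-5p was the most abundant, with 16743, 19910, 23451 and 19913 CPM at 12 to 15 h, against 30905, 28587, 27628 and 28918 CPM at 8 to 11 h (-0.55 ± 0.12, adjusted p = 0.0081).

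Among the rises, miR-77-3p was the largest. It held 30.04, 51.1, 61.3 and 102 CPM at 12 to 15 h, against 4.41, 4.56, 3.63 and 7.40 CPM at 8 to 11 h, and was 12.2-fold higher (log2 difference 3.61 ± 0.39, adjusted p = 0.000597). The step came between 11 and 12 h and the strand was higher in each later hour. Its guide miR-77-5p was ahead of it, with 187, 309, 408 and 287 CPM at 12 to 15 h, against 6.23, 12.4, 22.7 and 95.2 CPM at 8 to 11 h. All 4 later hours of the guide were higher, by 3.11 ± 0.76, which did not pass (adjusted p = 0.0125). It passed without the 11 h library (4.41, adjusted p = 0.000471).

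Abundant guides rose as well. miR-70-3p held 32652, 27504, 15610 and 26203 CPM at 12 to 15 h, against 5605, 6562, 7843 and 10988 CPM at 8 to 11 h (1.69 ± 0.26, adjusted p = 0.00204). Its passenger miR-70-5p did not follow, with 42.1 ± 11.7 CPM at 12 to 15 h against 51.9 ± 6.87 CPM at 8 to 11 h (-0.33 ± 0.20, adjusted p = 0.236), so the ratio fell by 2.04 ± 0.29 on the log2 scale (limma adjusted p = 0.000278).

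miR-235-3p, a miR-92 family miRNA that keeps precursor cells quiescent in starved first-stage larvae, held 9802, 15043, 16061 and 16419 CPM at 12 to 15 h, against 5900, 3506, 2278 and 6367 CPM at 8 to 11 h. It had a low at 10 h and held 15043 to 16419 CPM from 13 to 15 h. Its mean in lin-28(0) was 11260 CPM at 4 to 7 h and 10181 CPM at 16 to 19 h. The rise thus started from a low and did not last at its full height. The difference between the windows was 1.65 ± 0.32 (adjusted p = 0.0048), a call lost without 9, 13, 14 or 15 h (adjusted p = 0.0125 to 0.0192).

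miR-34-3p, the passenger of a miRNA family that p53 controls in mammals, rose beside a guide whose windows overlapped. The passenger held 400.2, 495, 594 and 692 CPM at 12 to 15 h, against 172, 181, 171 and 209 CPM at 8 to 11 h (1.55 ± 0.17, adjusted p = 0.000597). miR-34-5p averaged 2728 ± 319 CPM at 12 to 15 h against 2417 ± 362 CPM at 8 to 11 h (0.15 ± 0.13, adjusted p = 0.378). The passenger reached 14.5%, 19.9%, 23.7% and 21.9% of the guide at 12 to 15 h, against 6.25%, 6.84%, 7.35% and 10.7% at 8 to 11 h, a rise of the log2 ratio by 1.36 ± 0.24 (limma adjusted p = 0.0013).

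Both strands of mir-60, a gene active in the intestine, rose. miR-60-3p held 279, 219, 99.9 and 158 CPM at 12 to 15 h, against 84.3, 63.4, 55.95 and 68.5 CPM at 8 to 11 h (1.44 ± 0.29, adjusted p = 0.0053), a call lost without 9, 10, 11 or 13 h (adjusted p = 0.0127 to 0.0217). miR-60-5p was the steadier strand, with 80.6 ± 7.48 CPM at 12 to 15 h against 41.7 ± 4.19 CPM at 8 to 11 h (0.94 ± 0.13, adjusted p = 0.0013). mir-239a gave the same kind of pair, with miR-239a-3p at 22.1 ± 3.01 CPM at 12 to 15 h against 11.02 ± 1.30 CPM at 8 to 11 h (0.99 ± 0.15, adjusted p = 0.0018) and miR-239a-5p, known from stress responses, at 541 ± 140 CPM at 12 to 15 h against 278 ± 67.2 CPM at 8 to 11 h, higher at all 4 later hours and not past the threshold (0.93 ± 0.22, adjusted p = 0.0108).

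**Figure D3:**
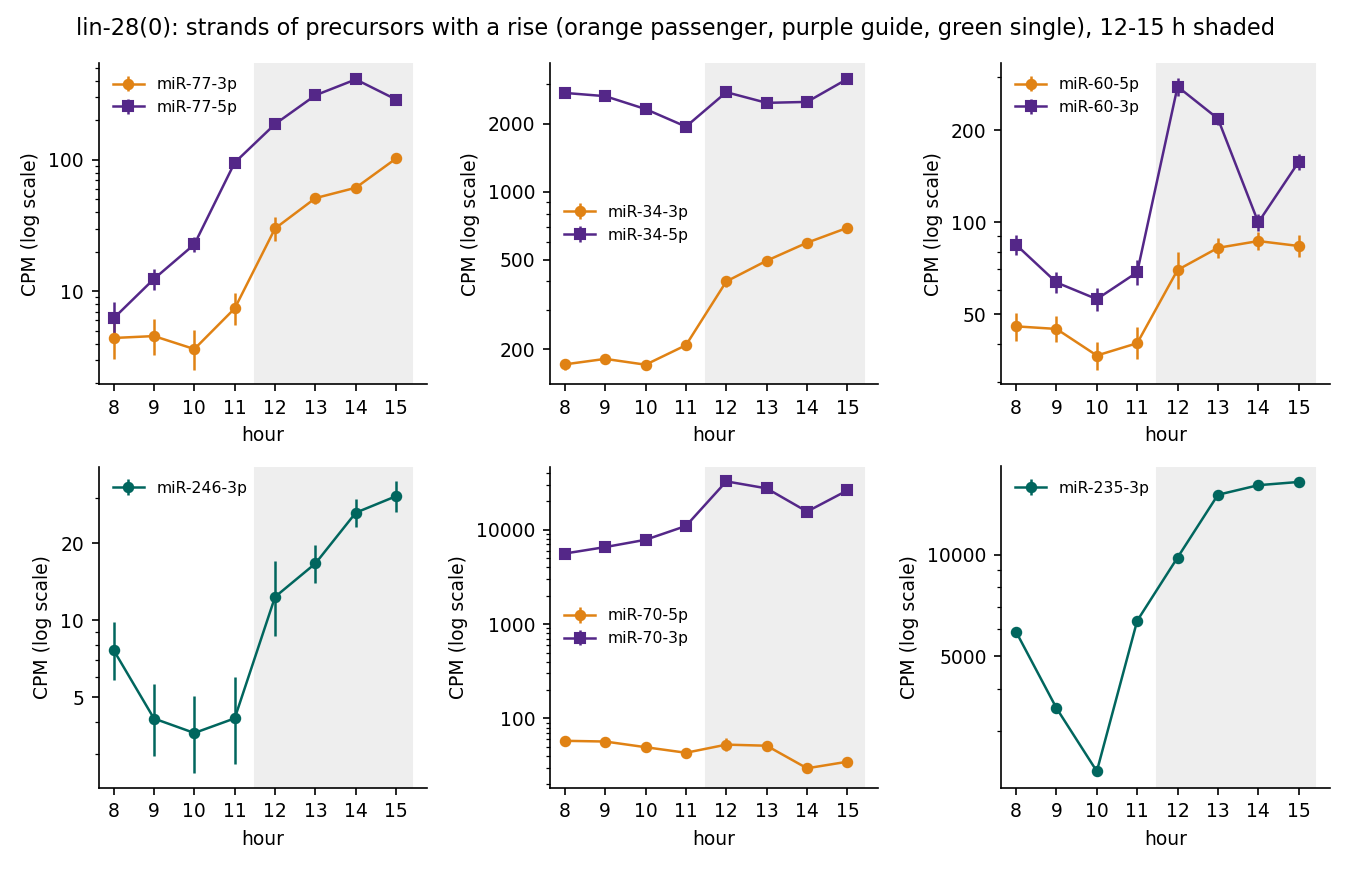
Level by hour, 8 to 15 h, in lin-28(0) for strands of precursors with a rise: mir-77, mir-34, mir-60 and mir-70 with passenger (orange) and guide (purple), and miR-246-3p and miR-235-3p, whose other strand was not tested (green). CPM axes are logarithmic and differ between panels, bars are exact 95% Poisson intervals of 1 library, and 12 to 15 h is shaded. miR-34-3p climbs to 692 CPM beside a guide between 1945 and 3166 CPM, and miR-60-3p and miR-70-3p dip at 14 h, to 99.9 and 15610 CPM.

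Fainter strands completed the rises. miR-246-3p, a strand known to increase with age in adults, held 12.3, 16.7, 26.3 and 30.5 CPM at 12 to 15 h, against 7.66, 4.14, 3.63 and 4.14 CPM at 8 to 11 h (2.14 ± 0.34, adjusted p = 0.00204). miR-81-5p, a passenger of the miR-58 family, averaged 29.7 ± 4.88 CPM at 12 to 15 h against 11.8 ± 2.44 CPM at 8 to 11 h (1.29 ± 0.19, adjusted p = 0.0017), while its guide miR-81-3p did not pass at 86734 ± 16955 CPM at 12 to 15 h against 84012 ± 14073 CPM at 8 to 11 h. The remaining named rises were miR-357-3p (1.11 ± 0.18), miR-259-3p (0.98 ± 0.16, lost without 9 h at adjusted p = 0.0104) and miR-62 (0.89 ± 0.20). miR-62 comes from a mirtron, an intron that is spliced into a precursor, and its call was lost without any 1 library other than that of 12 h (adjusted p = 0.0136 to 0.0268). miR-1018, also known as a mirtron product, was among the falls.

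Among the 24 named strands, a fit together with the WT libraries lost the calls of miR-235-3p, miR-253-3p, miR-259-3p, miR-42-5p, miR-43-5p, miR-58a-5p, miR-60-3p, miR-62, miR-79-5p and miR-81-5p (adjusted p = 0.0113 to 0.0338). The smooth curve lost let-7-3p, miR-58a-5p, miR-42-3p (-0.56), miR-51-5p (-0.26), miR-79-5p (-0.30) and miR-62 (0.49). Without both 11 h and 12 h, next to the border of the windows, miR-40-3p (adjusted p = 0.0123) and miR-60-3p (adjusted p = 0.014) were lost and let-7-3p kept its call.

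The other 12 strands that rose lay outside the naming rule by size or level, and 5 rises and 1 fall had a mean under 10 CPM. The largest of those 12 were miR-2221 (3.27 ± 0.44, 3.11 ± 1.09 CPM at 12 to 15 h against 0.31 ± 0.20 CPM at 8 to 11 h) and miR-799 (2.31 ± 0.50, 10.1 ± 1.56 CPM at 12 to 15 h against 2.07 ± 2.02 CPM at 8 to 11 h), which are few counts per library. The most abundant of them was miR-65-5p, with 17673 ± 1692 CPM at 12 to 15 h against 12831 ± 1033 CPM at 8 to 11 h (0.44 ± 0.10, adjusted p = 0.0088). It belongs to a run of neighbouring genes with mir-64, mir-66 and mir-229, of whose 8 strands 2 rose (25.0%, against 9.76% of all strands), 5 were higher at all later hours (17.5% of all strands were), and the median was 0.40.

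None of the 7 tested -5p strands of the let-7 family passed in either direction, and their median was 0.52. miR-48-5p, which together with miR-84 and miR-241 represses hbl-1 at the second larval stage, held 1840, 1575, 1510.4 and 1711 CPM at 12 to 15 h, against 141, 372, 766 and 1183 CPM at 8 to 11 h. All later hours were higher, yet the climb within the earlier window left the difference of 1.40 ± 0.52 outside the threshold (adjusted p = 0.0605). miR-241-5p (1.30 ± 0.47, adjusted p = 0.0592) and miR-84-5p (0.52 ± 0.14, adjusted p = 0.018) were likewise higher at all 4 hours. miR-795-5p (0.39 ± 0.17), miR-794-5p (-0.25 ± 0.12) and miR-793 (-0.33 ± 0.14) had differences of under 0.5. The smooth curve over 24 libraries put let-7-5p, miR-48-5p, miR-84-5p, miR-241-5p, miR-795-5p and miR-793 past the threshold, at 1.65, 1.94, 0.31, 1.97, 0.35 and -0.27.

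The passengers of this family moved apart from the guides in mir-48 as in let-7. miR-48-3p held 4.67, 5.24, 7.71 and 5.81 CPM at 12 to 15 h, against 2.08, 7.43, 17.2 and 18.2 CPM at 8 to 11 h, with overlapping windows (-0.93 ± 0.55, adjusted p = 0.221). Set against its guide, it was 0.25%, 0.33%, 0.51% and 0.34% at 12 to 15 h, and 1.48%, 1.99%, 2.25% and 1.54% at 8 to 11 h, and the log2 ratio fell by 2.35 ± 0.23 (limma adjusted p = 3.02e-05). Neither strand of mir-237 and neither strand of lin-4, the miRNA that represses lin-14 and lin-28, passed. lin-4-5p held 297, 359, 319 and 232 CPM at 12 to 15 h, against 19.3, 117, 276 and 408 CPM at 8 to 11 h (0.53 ± 0.67, adjusted p = 0.557). lin-4-3p held 13.02, 2.02, 1.27 and 1.45 CPM at 12 to 15 h, against 1.82, 10.2, 14.4 and 12.6 CPM at 8 to 11 h (-1.51 ± 0.81, adjusted p = 0.176). Its 12 h value came from the shallowest library and lay far from the other hours of that window. From its 10 h peak its slope was -0.66 ± 0.15 per hour, beside -0.15 ± 0.07 for lin-4-5p from 11 h. The smooth curve put both lin-4 strands past the threshold, at 2.47 for lin-4-5p and -1.11 for lin-4-3p.

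Taken over all 84 precursors with both strands tested, passengers as a class did not stand below guides. Of 84 passengers 9 rose and 8 fell (10.7% and 9.52%), with a median log2 difference of -0.07, and of 84 guides 5 rose and 8 fell (5.95% and 9.52%), with a median of 0.00. The passenger's difference was below its guide's in 43 precursors and above it in 41. In 7 precursors the passenger fell with a guide that was not called, in 1 (mir-42) both fell, and in 7 the guide fell with a passenger that was not called. In 7 the passenger rose alone, in 2 (mir-60 and mir-65) both rose, in 3 the guide rose alone, and in 57 neither was called. With the family strands of mir-42, mir-43 and mir-241 as guides, 9 passengers rose and 9 fell, and 5 guides rose and 7 fell. Without the 9 h library 5 passengers rose and 3 fell. The falls of passengers numbered 4 without 10 h, without 13 h or without 15 h. Guides that rose numbered 2 without 9, 10 or 13 h and 3 without 11 or 15 h, and guides that fell numbered 4 without 9, 13 or 15 h and 5 without 10 h.

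**Figure D4:**
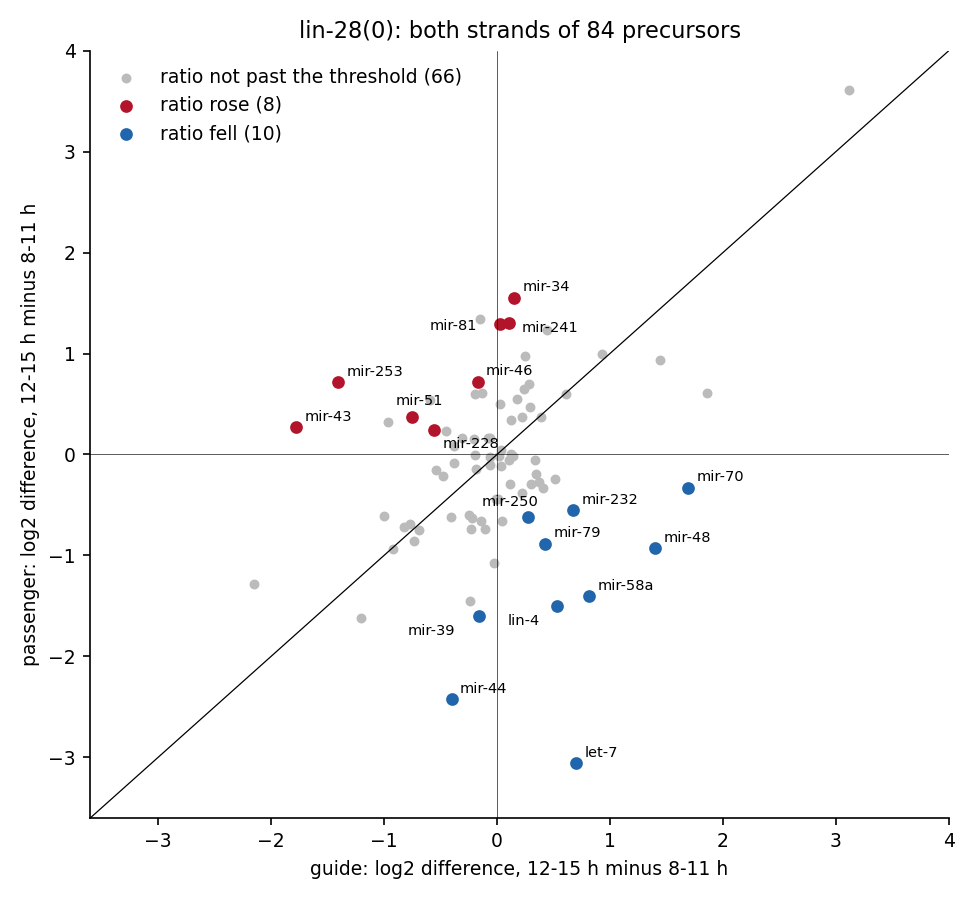
Each point is 1 of 84 precursors, with the log2 difference (12 to 15 h minus 8 to 11 h, lin-28(0)) of the guide (horizontal) and of the passenger (vertical), and the line marks equal change. Blue points are the 10 precursors whose passenger-to-guide ratio fell, red the 8 whose ratio rose and grey the 66 others. let-7 lies farthest below the line (-4.12 in the ratio) and mir-43 farthest above it among the red points (1.92), a point that lies below the line (-1.92) when its family strand is the guide.

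A ratio within a library does not depend on the library total. The passenger-to-guide ratio fell in 10 precursors (11.9%) and rose in 8 (9.52%) by limma at an adjusted p under 0.01. The falls were in let-7, lin-4, mir-48, mir-58a, mir-70, mir-44, mir-39, mir-79, mir-232 and mir-250, from -4.12 to -0.91 on the log2 scale. The windows of lin-4 overlapped because of its 12 h library, and its call was lost without 8, 9, 10, 13, 14 or 15 h (adjusted p = 0.0104 to 0.0275). The rises were in mir-43, mir-253, mir-34, mir-81, mir-51, mir-241, mir-46 and mir-228, from 1.92 to 0.83. These directions rest on the guide rule: with the family strand as the guide in mir-42, mir-43 and mir-241, mir-43 (-1.92) and mir-241 (-0.99) were falls. In that setting 12 ratios fell and 6 rose, with mir-46 still a rise because its guide was left as set by mean CPM. Without the 9 h library 6 fell and 2 rose, and without the 13 h library 4 rose. The calls of let-7, mir-48, mir-70, mir-44, mir-79, mir-232, mir-34 and mir-43 held without any 1 library. Those of mir-58a, mir-51 and mir-253 were lost without 9 h, mir-39 without 9 or 10 h, mir-241 without 9, 10 or 13 h, and mir-81 without 9, 11 or 13 h. mir-250 was lost without 8, 9, 12, 13 or 14 h, mir-46 without 8, 9, 10, 12, 13 or 15 h, and mir-228 without any 1 library other than 8 h, and these losses had adjusted p = 0.0104 to 0.0315. A pseudocount of 4 CPM in place of 1 CPM ended the calls of mir-241 (0.60, adjusted p = 0.0764) and lin-4 (-1.95, adjusted p = 0.0123).

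In mir-232 the ratio fell with a guide that rose, miR-232-3p (478 ± 44.4 CPM at 12 to 15 h against 296 ± 29.7 CPM at 8 to 11 h), and in mir-39 neither strand passed by itself. miR-39-5p was 2.54%, 2.40%, 2.01% and 1.27% of miR-39-3p at 12 to 15 h, against 3.38%, 6.19%, 7.53% and 4.91% at 8 to 11 h. In mir-253 and mir-51 the ratio rose with a falling guide, and the passengers miR-253-5p (0.99 ± 0.41 CPM at 12 to 15 h against 0.58 ± 0.34 CPM at 8 to 11 h) and miR-51-3p (28.6 ± 2.33 CPM at 12 to 15 h against 21.8 ± 2.89 CPM at 8 to 11 h) did not pass. The median log2 ratio of the 84 precursors was -4.49, -4.38, -4.27 and -4.34 at 12, 13, 14 and 15 h, against -3.99, -4.11, -4.17 and -4.32 at 8, 9, 10 and 11 h, and the 11 h library fell within the later window.

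Net hourly slopes from the highest hour of 8 to 11 h to 15 h were compared among the named falls. Each starts at its strand's own highest hour, so the slopes cover different hours and give only a rough order. let-7-3p was the steepest at -0.99 ± 0.11 per hour. miR-44-5p (-0.49 ± 0.08 from 8 h), miR-41-5p (-0.46 ± 0.12 from 10 h), miR-42-5p (-0.45 ± 0.08 from 8 h), miR-42-3p (-0.42 ± 0.03) and miR-43-5p (-0.40 ± 0.08 from 9 h) followed, with differences among them within their errors. The slope of miR-44-5p averages a decline up to 12 h and flat levels after it. miR-40-3p had -0.37 ± 0.13 from 11 h and miR-253-3p -0.31 ± 0.05 from 8 h. miR-44-3p, the guide, had a slope of -0.14 ± 0.02 from 10 h. miR-58a-5p, with its single low at 12 h, had -0.25 ± 0.17.

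The same windows in WT served to ask which of these changes went with the loss of LIN-28. In WT 16 strands rose and 12 fell, in a fit of the 16 libraries of both strains. That fit called 31 strands in lin-28(0), against 44 in the fit of its own 8 libraries. The lin-28(0) steps below are from the 8 libraries and the WT steps and differences from the 16. Of the 44 strands called in lin-28(0), 37 (84.1%) had the same sign in WT, against 165 of all 246 (67.1%). The difference between the steps, lin-28(0) minus WT, passed for 0 of 246 strands (0%) in edgeR and for 0 in limma. In each, 54 strands had an unadjusted p under 0.05. The smallest adjusted p in edgeR was 0.0718, for miR-65-5p (0.44 in lin-28(0), -0.05 in WT). With the WT windows set 1 h later, to 9 to 12 h and 13 to 16 h, 15 strands passed, and with them 1 h earlier none did. The strains may differ in tempo, and equal sampling hours need not be equal stages.

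For miR-77-3p the step was 3.61 in lin-28(0) and 3.69 in WT, and for miR-34-3p 1.55 and 1.65. miR-41-5p had -1.63 in lin-28(0) and -1.76 in WT, and miR-43-5p -1.78 in lin-28(0) and -1.76 in WT. miR-58a-3p had 0.82 in lin-28(0) and -0.30 in WT (difference 1.21, adjusted p = 0.0907), miR-357-3p 1.11 and 0.01 (1.19, adjusted p = 0.128), and miR-228-5p -0.55 and 0.20 (-0.67, adjusted p = 0.0798), none past the threshold. let-7-3p could not be compared as a fold, since WT held 0 counts in all 4 libraries of 12 to 15 h, which allows up to 1.30 CPM in the shallowest, and 1, 6, 10 and 0 counts at 8, 9, 10 and 11 h. lin-4-3p held 0.80 ± 0.27 CPM at 12 to 15 h and 14.5 ± 11.8 CPM at 8 to 11 h in WT, where it fell (adjusted p = 0.0052), and the difference of its steps did not pass (2.78, adjusted p = 0.215).

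**Figure D5:**
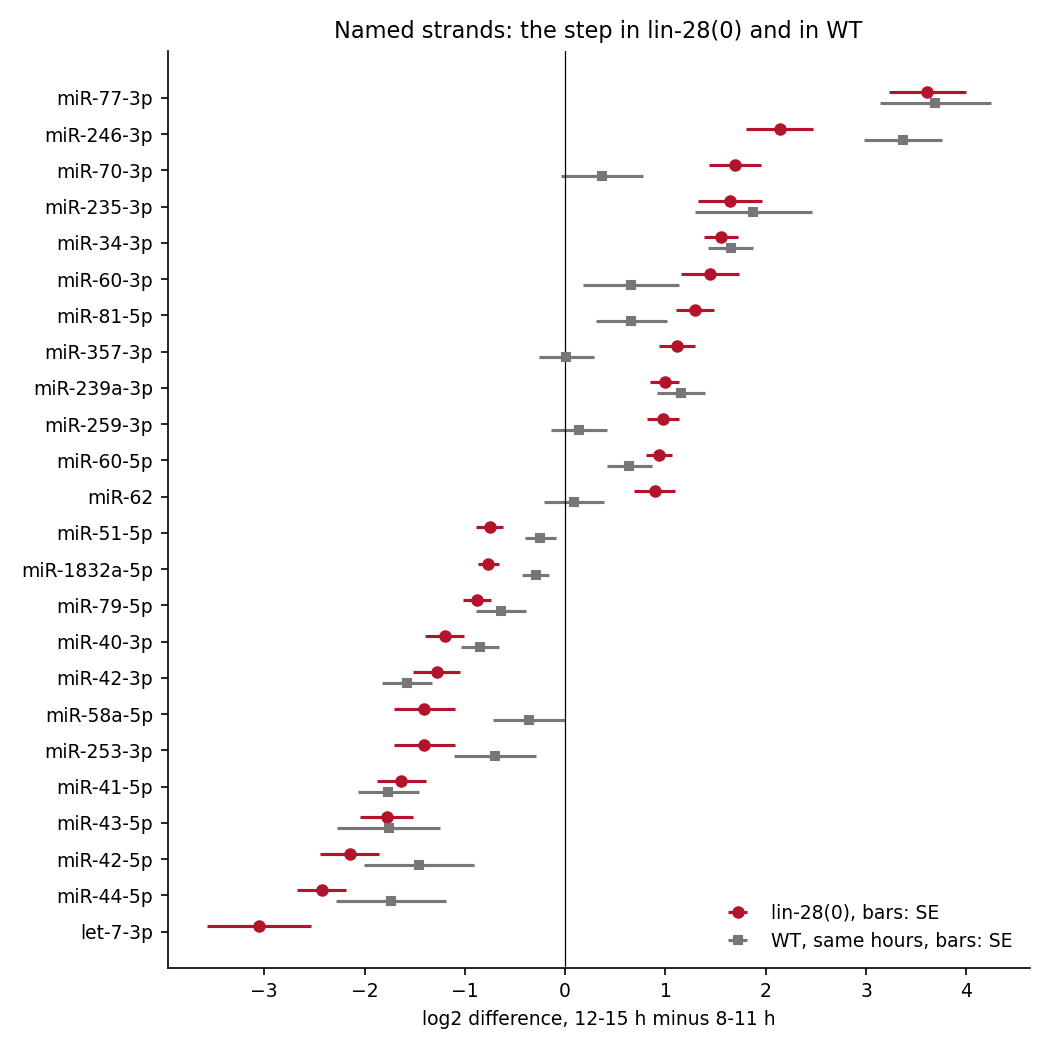
Log2 difference, 12 to 15 h minus 8 to 11 h, of the 24 strands named by size, in lin-28(0) (red circles) and in WT at the same hours (grey squares), with bars of 1 SE. The lin-28(0) values are from the edgeR fit of its 8 libraries, the WT values from that of 16 libraries. No WT point is drawn for let-7-3p, which had 0 counts in WT at 12 to 15 h. miR-77-3p (3.61 in lin-28(0), 3.69 in WT) and miR-34-3p (1.55 and 1.65) lie close together, and miR-70-3p (1.69 and 0.37) and miR-357-3p (1.11 and 0.01) apart, without passing the test of the difference.

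The miRNA families examined as lists differed in their share of calls. In the miR-51 family 2 of 6 fell (miR-51-5p and miR-53-5p), which is 33.3% against 8.13% of all strands, 5 were lower at all later hours, as were 18.7% of all strands, and the median was -0.69. In the miR-58 family 0 of 5 passed (median -0.14), in the miR-2 family 0 of 4 (median 0.27), and in the miR-44 family 1 of 4 rose (25.0%, against 9.76% of all strands), the faint miR-247-3p (3.66 ± 0.75 CPM at 12 to 15 h against 1.14 ± 0.45 CPM at 8 to 11 h), beside a median of -0.32. A further list holds strands that the ubiquitin ligase substrate receptor EBAX-1 lowers, chosen by the study in other samples. Of its 11 tested strands 2 rose (miR-235-3p and miR-247-3p) and 2 fell (miR-40-3p and miR-42-3p), 18.2% in each direction against 9.76% and 8.13% of all strands.

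Of 162 tested precursors, 142 could be matched by name to the annotation WBcel235, which gave 19 groups of miRNA genes within 10 kb of one another. Of these groups 10 held a called strand, and 0 held both a rise and a fall. Most held only 1 call and so could not hold both. More than 1 call was found only in mir-42 to mir-45, mir-35 to mir-41, mir-51 with mir-53, and mir-229 with mir-64, mir-65 and mir-66. mir-42 to mir-45 held 4 falls among 8 strands, mir-35 to mir-41 held 2 among 12, and mir-51 with mir-53 held 2 among 3, where 8.13% of all strands fell. Within such groups members still differed, as in mir-48 with mir-241, where miR-48-5p differed by 1.40 and miR-48-3p by -0.93.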

How the data were processed

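Small RNA of whole larvae was sequenced. The deposited table holds raw counts, which the authors made with QuasR and Bowtie (version not stated) on ce10, keeping reads with at most 100 hits and assigning those that began within 3 bases of the 5′ end of a miRBase strand. A second deposited table holds log2 values, which were recomputed from the counts (pseudocount 8, largest difference 5e-04) and not used.

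Genotype and hour were taken from the labels. The windows were compared with edgeR 4.0.16 (quasi-likelihood F test, TMM, R 4.3.3), with Benjamini-Hochberg adjustment over 246 strands and a threshold of 0.01. The WT step and the interaction with WT used 16 libraries, and the passenger-to-guide ratio limma 3.58.1 (pseudocount 1 CPM). Single library values were compared by exact permutation. Single levels carry Poisson intervals at 95% and floors of 3 counts, both for counting error only. Totals of 2996370 to 9633044 counts set the precision. Named were the 12 largest rises and falls past the threshold with at least 10 CPM and windows apart, the other strand of each, and the let-7 and lin-4 families. Where a called strand outside that rule is given with values, it was picked after its values were seen. The members, windows and lists were chosen with earlier results of these data known. Alternatives were DESeq2 1.42.0, limma, other scalings, filters, thresholds and pseudocounts, a spline over 24 libraries, shifted WT windows, the family strand as the guide (chosen after seeing the data) and leaving out each library. The edgeR step and the ratio test were checked on simulated counts, drawn independently for each library with a single dispersion. That simulation held no trend or dependence between hours, and no other test was scored on it.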

Additional observations from a re-analysis of the deposited data

Results flagged for a closer look

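In 7 of 106 windows of 4 hours checked (53 named strands), 1 library lay far from the other 3 by Dixon's ratio, where chance flags about 1 in 20. At 12 to 15 h these were lin-4-3p with 13.02 CPM at 12 h (others 1.27 to 2.02), miR-79-3p with 158.6 CPM at 15 h (others 217 to 223), miR-259-5p with 86.9 CPM at 15 h (others 106 to 108) and miR-1832a-3p with 6.40 CPM at 15 h (others 4.33 to 4.65). At 8 to 11 h they were miR-246-3p with 7.66 CPM at 8 h (others 3.63 to 4.14), miR-81-5p with 15.5 CPM at 10 h (others 10.5 to 10.8) and miR-795-5p with 771 CPM at 11 h (others 569 to 598). The 12 h library was the shallowest of the 8, with 2996370 counts, and the part of depth in these values was not tested.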

How the results depend on the processing

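Of 1402 values under alternatives for 80 results, 1212 kept their direction and their side of the threshold or lay within 1.5 times the count. DESeq2 called 39 rises and 35 falls (15 falls of passengers, 13 rises and 15 falls of guides), with all 44 calls among its 74. The spline over all 24 lin-28(0) libraries called 41 and 36 (15 rises of passengers, 14 rises and 14 falls of guides) and shared 28 of the 44. Fitted with the WT libraries, 8 strands fell (3 passengers, 4 guides) and 26 of the 44 were kept. A mean count of at least 100 gave 8 rises of guides, and leaving out 11 h and 12 h 5 falls of guides. At a threshold of 0.05, 41 rose and 45 fell (14 and 19 passengers, 13 and 18 guides), and 14 ratios rose. The causes were not tested. Leaving out 1 library gave 10 to 23 rises, 8 to 17 falls, 5 to 10 rises and 3 to 8 falls of passengers, 2 to 6 rises and 4 to 7 falls of guides, 2 to 8 rises and 6 to 10 falls of ratios, and 18 to 33 of the 44 calls. The difference from the WT step passed for 2 strands (miR-36-3p and miR-230-5p) with the sampling hour as a replicate block, for 15 with later WT windows, and for 0 without any 1 library. Hours of 2 cultures share only a time, and no paired analysis within lin-28(0) was possible because its windows share no hour. The family strand was also taken as the guide in mir-42, mir-43 and mir-241 only, a choice made after seeing the data. Among called ratios those of mir-43 (-1.92) and mir-241 (-0.99) turned, which gave 12 falls and 6 rises. A pseudocount of 4 CPM ended the ratio calls of mir-241 (0.60) and lin-4 (-1.95). Signs turned for strands not past the threshold: under the spline miR-34-5p (-0.21), miR-237-5p (0.027), miR-84-3p (0.11), miR-237-3p (0.13) and miR-48-3p (1.03), without 11 h and 12 h miR-237-5p (0.060), and over the fits without 1 library miR-81-3p (-0.041 to 0.22) and miR-241-3p (-0.21 to 0.45). Strands under about 10 CPM rest on few counts at 12 h, where 1 count was 0.334 CPM.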
